A study of Homo sapiens with 6 samples.

Results

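AP-1 and EGR proteins are transcription factors of the immediate early response. The 10 genes examined were FOS, FOSB, FOSL1, FOSL2, JUN, JUNB, JUND, EGR1, EGR2 and IER3, the last an early response gene of neither family. They were taken by gene symbol from the deposited table, which holds 58735 genes, and all 10 were found in it. The libraries came from HT1080, an established human fibrosarcoma line grown in serum-containing DMEM, in 3 wild-type (WT) libraries and 3 libraries of a GPR56 knockout (KO) made with CRISPR-Cas9. GPR56, gene symbol ADGRG1, is an adhesion G protein-coupled receptor, and the study asked which mRNA levels depend on it. The sample descriptions name DMSO, a solvent, for both genotypes, without a dose or time. The labels do not say whether libraries of a genotype came from separate cultures or how many knockout clones were used, so p-values measure only the spread between these libraries, which may be technical.

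AP-1 is a dimer of a JUN protein with a FOS, JUN or ATF protein, held together by a leucine zipper, and it binds short palindromic DNA sites in growth, invasion and stress genes. EGR proteins bind GC-rich sites through zinc fingers. Growth factors and stress induce most of these genes within minutes through ERK, JNK and p38 kinases and the serum response factor SRF, while FOSL1 (the protein FRA1) accumulates under sustained ERK signalling. HT1080 cells carry an activated NRAS oncogene, which feeds the ERK pathway.

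Levels are given as FPKM, reads scaled to gene length and library size, so they can be set side by side between genes. Between 16410352 and 17276269 reads per library could be recovered from the values, and 1 read in a gene of 1 kb was worth 0.0581 to 0.0602 FPKM. ADGRG1 itself was at 6.61, 6.07 and 6.87 FPKM in WT and 2.68, 2.54 and 2.58 FPKM in KO. Of 10 mesenchymal marker genes, 7 had a mean of at least 1 FPKM, led by VIM at a mean of 299 FPKM, while COL1A2 and THY1 were under 0.1 FPKM. Of 8 epithelial markers only KRT8 and KRT18 reached a mean of 1 FPKM, and EPCAM, CDH1, CLDN7, KRT19 and KRT5 were under 0.1 FPKM. The summed epithelial level was 77.6 to 81.0 FPKM in WT and 109 to 112 FPKM in KO, nearly all of it from these 2 keratins. No blood, endothelial or hepatocyte marker reached a mean of 1 FPKM, their highest sums being 0.499, 1.59 and 0.692 FPKM, in KO each time. The summed mesenchymal level was 623 to 644 FPKM in WT and 686 to 774 FPKM in KO, and the share of mitochondrial reads 2.29% to 2.71% and 2.78% to 3.64%. Both moved with genotype, as did the epithelial sum, and their part in the results was not tested. In bulk libraries fewer cells expressing a gene and less RNA per cell cannot be told apart.

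The genes fell into 2 sets by level. FOSL1, IER3, JUN, FOSL2, JUNB and JUND were each above 20 FPKM in all 6 libraries, whereas EGR1 stayed under 3 FPKM and FOS, FOSB and EGR2 under 1 FPKM in all of them. In WT the order of mean FPKM was FOSL1, IER3, JUN, FOSL2, JUNB, JUND, EGR1, FOS, FOSB and EGR2, with overlapping ranges between FOSL2 and JUNB and between JUNB and JUND. In KO it was IER3, FOSL1, JUN, JUND, FOSL2, JUNB, EGR1, FOS, FOSB and EGR2, with overlap between JUN and JUND, between JUND and FOSL2, between FOS and FOSB and between FOSB and EGR2. IER3 and FOSL1 thus changed places at the top of the order, and their ranges did not overlap in either genotype.

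**Figure D1:**
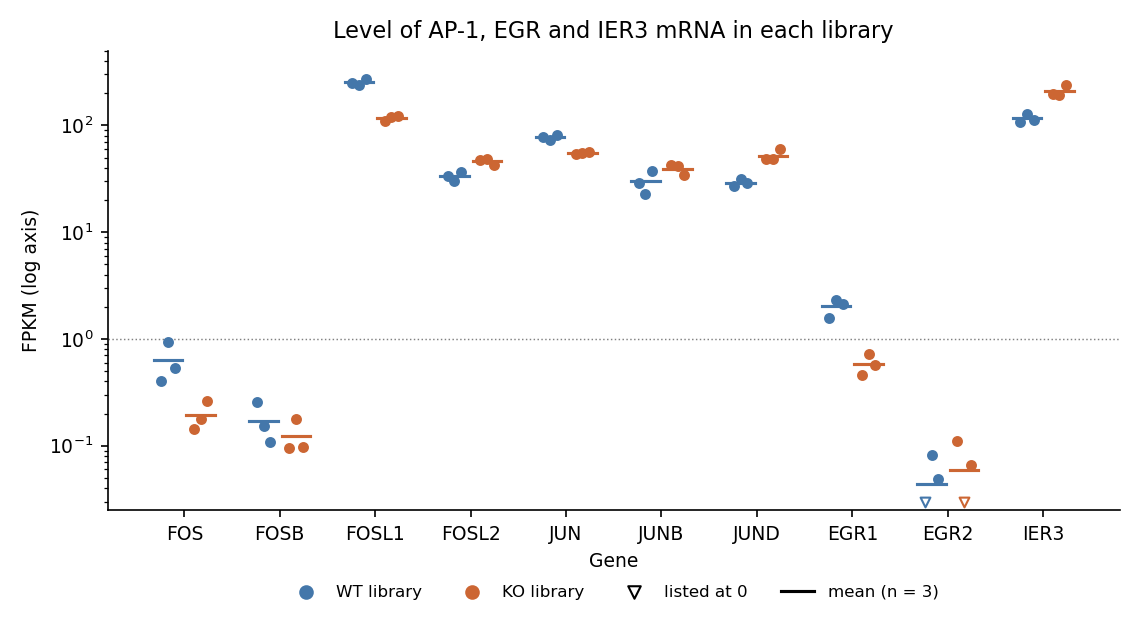
FPKM of the 10 genes (log axis) in each WT library (blue) and KO library (orange), with the mean of 3 libraries as a bar, open triangles for values listed at 0 and a dotted line at the filter of 1 FPKM. FOSL1, JUN, FOS and EGR1 have all KO points below the WT points, and FOSL2, JUND and IER3 have them above. Among all tested genes, which do not include FOS, 28.3% have them below and 26.4% above.

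Genotypes were compared with limma on log2(FPKM + 1) over the 12000 genes with a mean of at least 1 FPKM, with Benjamini-Hochberg adjustment over all of them and a threshold of 0.05. Of the 10 genes 7 were tested, and 3 rose in KO (FOSL2, JUND and IER3), 3 fell (FOSL1, JUN and EGR1) and 1 did not pass (JUNB). Among all tested genes 21.0% were called higher and 22.4% lower, 43.4% in all, so calls were common in this comparison. With as many calls up as down, the median log2 fold change of the 7 was that of JUNB, which did not pass: 0.41, or 0.16 after removal of the trend with GC content and length, against −0.01 and 0.00 over all tested genes. EGR1 passed the filter only through its WT level. FOS, FOSB and EGR2 lay under the filter and are described by their values. Fold changes on this scale understate changes of low genes, and ratios of mean FPKM are given beside them.

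Within the FOS family the dominant paralog fell and the next one rose. FOSL1 (ENSG00000175592, GRCh38 chromosome 11, positions 65892049 to 65900573, minus strand) encodes FRA1, which lacks the strong transactivation domain of FOS. Its level was 248, 239 and 272 FPKM in WT and 109, 119 and 122 FPKM in KO. Every KO library lay below every WT library, which held for 28.3% of all tested genes (54.7% in either direction). In the mean it went from 253 ± 16.8 to 117 ± 6.90 FPKM (SD, n = 3), a KO to WT ratio of 0.461 (log2 fold change −1.11, SE 0.08, limma adjusted p = 9.07e-05). FOSL2 (chromosome 2, positions 28392448 to 28417312, plus strand) encodes the related FRA2. It was at 33.7, 29.9 and 36.6 FPKM in WT and 47.9, 48.2 and 42.4 FPKM in KO, without overlap, as for 26.4% of all tested genes in the upward direction. Its mean rose from 33.4 ± 3.4 to 46.2 ± 3.3 FPKM (SD, n = 3), a ratio of 1.38 (log2 fold change 0.46, SE 0.09, limma adjusted p = 0.00626).

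FOS, the founding member and the partner most often induced by serum, was scarce in these growing cultures. FOS (chromosome 14, positions 75278774 to 75282230, plus strand) had 22, 51 and 29 reads in the WT libraries and 8, 10 and 14 reads in the KO libraries, or 0.402, 0.946 and 0.538 FPKM against 0.144, 0.180 and 0.260 FPKM. All KO values were below all WT values, at a KO to WT ratio of mean FPKM of 0.310, and WT 2 had the highest value. Such a separation held for 28.3% of the 12000 tested genes, which do not include FOS. It was not counted over genes under the filter. It could be tested only without the filter: limma on log2(FPKM + 1) gave a log2 fold change of −0.43 (adjusted p = 0.0926; 7.90% of all genes called lower), and limma-voom on the recovered reads gave −1.63 (SE 0.43, adjusted p = 0.0127). That second fit, which was chosen after the data were seen, called 11.4% of 31298 genes lower and 9.85% higher, so the FOS call depended on the test. FOSB (chromosome 19, positions 45467995 to 45475179) had 24, 14 and 10 reads in WT and 9, 17 and 9 reads in KO, with overlapping values and an adjusted p of 0.57 (limma with no filter) and 0.56 (limma-voom). A difference in FOSB was not detectable at this depth.

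Within the JUN family JUN fell and JUND rose. JUN (chromosome 1, positions 58780788 to 58784327, minus strand), a single-exon gene whose protein is the main substrate of JNK kinases, was at 78.2, 73.1 and 81.0 FPKM in WT and 54.4, 54.8 and 56.4 FPKM in KO. The KO libraries were close to each other and all below WT. Mean JUN went from 77.4 ± 4.0 to 55.2 ± 1.0 FPKM (SD, n = 3), a ratio of 0.712 (log2 fold change −0.48, SE 0.06, limma adjusted p = 0.000985). JUND (chromosome 19, positions 18279760 to 18281622, minus strand), the paralog known for a steady level in resting cells and for slowing growth in fibroblasts, was at 26.8, 31.2 and 28.6 FPKM in WT and 48.0, 48.7 and 59.7 FPKM in KO. All KO libraries were above all WT libraries, KO 3 highest. Its mean rose from 28.9 ± 2.2 to 52.1 ± 6.6 FPKM (SD, n = 3), a ratio of 1.81 (log2 fold change 0.83, SE 0.10, limma adjusted p = 0.000849).

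JUNB (chromosome 19, positions 12791496 to 12793315, plus strand), a weaker activator that can oppose JUN, was at 29.2, 22.7 and 37.6 FPKM in WT and 42.4, 41.2 and 34.4 FPKM in KO. The genotypes overlapped, WT 3 lying above KO 3. The log2 fold change was 0.41 with a 95% interval of 0.00 to 0.82 (limma, unadjusted p = 0.0495, adjusted p = 0.0959) and a lower bound next to 0. Leaving out WT 3 gave 0.59 and an adjusted p of 0.0159, and leaving out WT 2 gave 0.23 and an adjusted p of 0.214. Of the exonic bases of JUNB 14.2% overlap HOOK2 on the opposite strand, whose mean was 1.79 FPKM against 34.6 FPKM for JUNB.

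**Figure D2:**
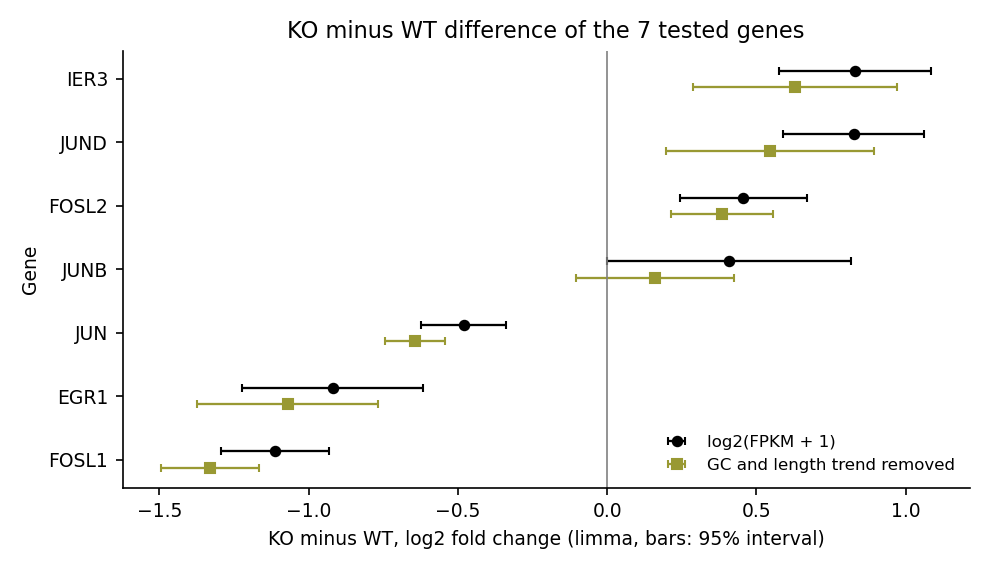
KO minus WT log2 fold change of the 7 tested genes from limma with 95% intervals, on log2(FPKM + 1) (black) and after removal of each library's trend with GC content and gene length (olive). The JUNB interval starts at 0.00 on the first scale and spans 0 on the second, and JUND moves from 0.83 to 0.54.

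EGR1 (ENSG00000120738, chromosome 5, positions 138465490 to 138469315, plus strand), a zinc finger factor induced by ERK and SRF, was low and fell further. It was at 1.56, 2.34 and 2.15 FPKM in WT, from 83, 122 and 112 reads, and at 0.464, 0.723 and 0.576 FPKM in KO, from 25, 39 and 30 reads. No KO value reached the lowest WT value. Mean EGR1 went from 2.01 ± 0.40 to 0.588 ± 0.13 FPKM (SD, n = 3), a ratio of 0.292 (log2 fold change −0.92 on the scale with 1 added, SE 0.13, limma adjusted p = 0.00149; −1.62 with 0.1 added, adjusted p = 0.0018). EGR2 (chromosome 10, positions 62811996 to 62919900, minus strand) had 8 reads summed over WT and 11 summed over KO and could not be compared. IER3 (chromosome 6, positions 30743199 to 30744554, minus strand), an early response gene that is also a target of NF-kB and acts on survival and ERK signalling, was at 107, 129 and 113 FPKM in WT and 195, 191 and 238 FPKM in KO. It rose in all KO libraries, from a mean of 116 ± 11 to 208 ± 26 FPKM (SD, n = 3), a ratio of 1.79 (log2 fold change 0.83, SE 0.11, limma adjusted p = 0.00111). The antisense gene IER3-AS1 covers 26.5% of its exonic bases and had a mean of 0.0762 FPKM.

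A trend with GC content ran with genotype and touches these GC-rich genes. When each gene's departure from its 6-library mean was set against its GC content, Spearman's rho over genes came to −0.40, −0.63 and −0.02 for WT 1 to 3 and to 0.47, 0.45 and 0.23 for KO 1 to 3; genes of a library share its preparation. JUND has a GC content of 69.7%, above 99.5% of tested genes, and JUNB one of 64.9%. With each library's trend with GC content and length removed, the same 6 of the 7 genes were called in the same directions, against 21.6% of all tested genes higher and 21.9% lower. JUND then had a log2 fold change of 0.54 (limma adjusted p = 0.0228), IER3 0.63 (adjusted p = 0.0123), JUNB 0.16 (adjusted p = 0.281), JUN −0.64 (adjusted p = 7.85e-05) and FOSL1 −1.33 (adjusted p = 3.1e-05).

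The libraries of WT also differed among themselves. FOSL1, FOSL2, JUN and JUNB all had their lowest WT value in WT 2 and their highest in WT 3. FOS, EGR1, EGR2, JUND and IER3 all had their highest WT value in WT 2, that of EGR2 from 5 reads. FOSB had its highest in WT 1. The genes were grouped after these values were seen, and a link with the GC trend was not tested. The WT coefficient of variation was 25.0% for JUNB, larger than that of 91.4% of tested genes, against 5.13% for JUN and 6.62% for FOSL1.

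Because FPKM is per length, the paralogs can be added up within a family. FOSL1 made up 87.9%, 88.5% and 87.9% of FOS family FPKM in WT and 69.3%, 71.0% and 74.1% in KO, while the share of FOSL2 went from a mean of 11.6% to 28.3%. FOS and FOSB had mean shares of 0.222% and 0.0605% in WT and of 0.119% and 0.0753% in KO. JUN made up 58.3%, 57.5% and 55.0% of JUN family FPKM in WT and 37.5%, 37.9% and 37.5% in KO. The mean share of JUND was 21.3% in WT and 35.5% in KO, and that of JUNB 21.7% and 26.9%. In KO the 3 JUN paralogs thus lay closer to equal shares than in WT.

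The family sums behaved differently. FOS family mRNA summed to 283, 270 and 309 FPKM in WT and 157, 167 and 165 FPKM in KO. JUN family mRNA summed to 134, 127 and 147 FPKM in WT and 145, 145 and 150 FPKM in KO, ranges that overlap. The sum for FOS genes was 2.11, 2.13 and 2.10 times that for JUN genes in the WT libraries and 1.08 to 1.16 times in the KO libraries. With the GC and length trend removed the JUN family sums were 145, 148 and 147 FPKM in WT and 131, 133 and 142 FPKM in KO, so the direction of the difference turned and the ranges no longer overlapped, while the ratio of the sums stayed at 2.10 and 1.13. These shares are descriptions of mRNA with no test, and protein amounts were not measured.

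**Figure D3:**
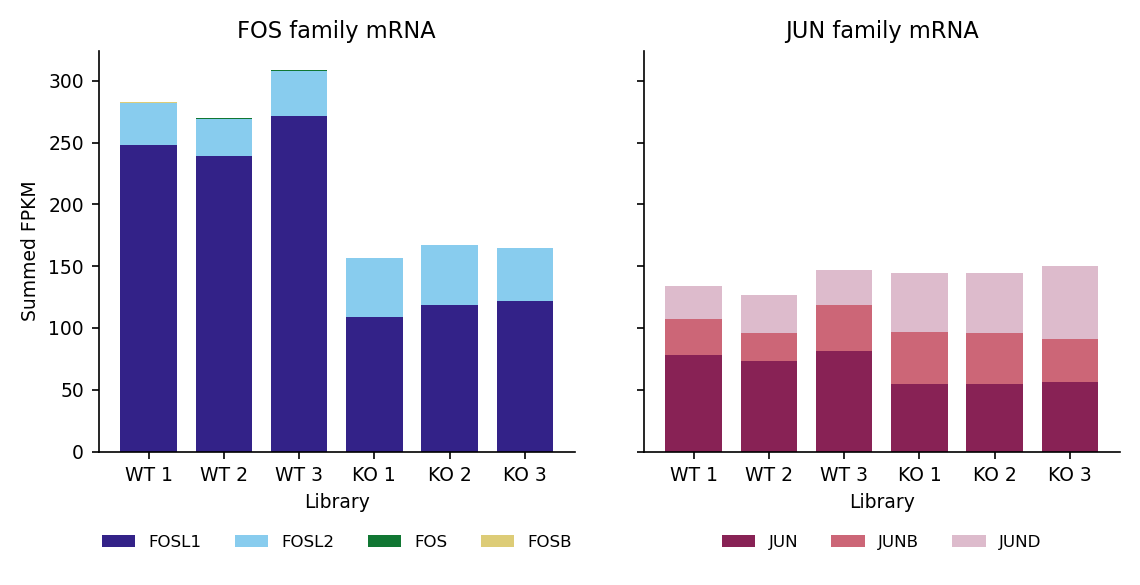
Stacked FPKM of the FOS family (left) and JUN family (right) in each of the 6 libraries, on 1 linear axis from 0. The FOS family sum is 270 to 309 FPKM in WT and 157 to 167 FPKM in KO with FOSL1 as the main part, and the JUN family sum is 127 to 150 FPKM over all libraries, with a smaller JUN and a larger JUND part in KO.

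Promoter sequence was available for 8 of the 10 genes from RefSeq (GRCh38.p14), FOSL1 and IER3 having no entry. The windows hold the 250 bases before the RefSeq start, and EGR2 has 3 of them. Those of FOSL2, JUN and EGR2 lie wholly inside the GENCODE gene, whose start is further upstream. Stretches of EGR1, FOS, JUN and JUND are printed because these genes are classic targets of SRF, CREB and AP-1; EGR1 and JUN fell, JUND rose and FOS lay under the filter. Each reads 5′ to 3′ on the gene's strand, without bases inside the GENCODE gene for the first 3 lines, and capitals mark motif matches.
EGR1 chr5:138465229-138465478, plus strand: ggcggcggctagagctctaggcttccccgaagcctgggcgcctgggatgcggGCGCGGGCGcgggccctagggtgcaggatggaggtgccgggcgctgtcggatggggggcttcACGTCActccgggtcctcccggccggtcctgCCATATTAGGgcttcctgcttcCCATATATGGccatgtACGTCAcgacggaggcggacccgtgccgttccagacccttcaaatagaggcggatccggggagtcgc
FOS chr14:75278578-75278773, plus strand: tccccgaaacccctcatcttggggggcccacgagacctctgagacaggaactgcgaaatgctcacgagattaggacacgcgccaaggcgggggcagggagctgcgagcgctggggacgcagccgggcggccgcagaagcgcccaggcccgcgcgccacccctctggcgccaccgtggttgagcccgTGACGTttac
JUND chr19:18281623-18281872, minus strand: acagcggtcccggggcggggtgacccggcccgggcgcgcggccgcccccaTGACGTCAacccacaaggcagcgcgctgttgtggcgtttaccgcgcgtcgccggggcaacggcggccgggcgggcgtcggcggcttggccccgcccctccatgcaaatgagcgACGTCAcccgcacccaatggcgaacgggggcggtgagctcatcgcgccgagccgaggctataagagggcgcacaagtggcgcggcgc
JUN chr1:58784096-58784125, minus strand: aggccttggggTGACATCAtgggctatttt

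Both strands were searched for 5 motifs. The SRF site, known as the CArG box, occurred at −105 to −96 and −83 to −74 before the EGR1 start and at −71 to −62 in 1 EGR2 window, and in 1.16% of all 35116 promoter windows of the same length. Sequence further upstream, of FOS or of the other genes, was not searched. The CREB core site TGACGT was found in EGR1, EGR2, FOS, FOSB, FOSL2 and JUND, against 7.1% of all windows. The 8-base site TGACNTCA, bound by AP-1 and ATF dimers, was found in JUN at −67 to −60 and in JUND at −200 to −193, where it contains a CREB core site, against 6.87% of all windows. The EGR site GCGNGGGCG was found in EGR1 alone (8.41% of all windows), and TGANTCA, the usual AP-1 site, in none of the 8 genes' windows (6.57% of all windows). CREB-type sites thus occurred before the RefSeq start of genes that fell (EGR1), rose (FOSL2, JUND) and were not tested (FOS, FOSB, EGR2). For FOSL2 and EGR2 these sites lie inside the GENCODE gene. A match is a description of letters, and no binding was measured.

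Other bZIP factors that share AP-1 sites or partners were mostly lower. Of 15 genes 12 were tested, and 7 fell, 1 rose and 4 did not pass (median log2 fold change −0.38). Among all tested genes 22.4% were called lower and 21.0% higher. ATF3, a stress-induced partner of JUN, fell from 3.27 ± 0.23 to 1.86 ± 0.13 FPKM (SD, n = 3), with limma adjusted p = 0.00129. BATF3 fell from 3.38 ± 0.14 to 1.84 ± 0.26 FPKM, CREB1 from 5.24 ± 0.48 to 3.07 ± 0.16 FPKM (log2 fold change −0.61, and −0.27 after removal of the GC and length trend) and ATF1 from 10.7 ± 1.3 to 6.01 ± 0.52 FPKM. The gene that rose was MAFK, a small MAF protein, singled out after its values were seen (10.6 ± 2.9 to 15.9 ± 1.9 FPKM, limma adjusted p = 0.0468; 0.0756 after removal of the GC and length trend).
Among EGR relatives, EGR3 and EGR4 had 5 reads or fewer over each genotype. NAB2, a corepressor that EGR1 induces and that restrains it, rose from 10.4 ± 1.5 to 14.8 ± 0.82 FPKM (log2 fold change 0.48, limma adjusted p = 0.00808; 0.26 and 0.00795 after removal of the GC and length trend), while EGR1 fell. NAB1 was at 6.61 ± 0.83 and 5.30 ± 0.25 FPKM (adjusted p = 0.0492, and 0.185 after removal of the GC and length trend). The Wilms tumour gene WT1, whose zinc fingers resemble those of EGR proteins, fell from 2.44 ± 0.35 to 1.03 ± 0.051 FPKM (limma adjusted p = 0.0011).

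Immediate early genes outside these families moved both ways. Of 26 genes 22 were tested, and 8 rose, 8 fell and 6 did not pass (median −0.02). That is 36.4% in each direction, against 21.0% higher and 22.4% lower among all tested genes. After removal of the GC and length trend 7 were higher and 9 lower, against 21.6% and 21.9% of all tested genes. The 4 with the smallest adjusted p were BTG2, an antiproliferative gene, and KLF4, a zinc finger factor, which rose (KO to WT ratios of mean FPKM of 3.17 and 4.05), and the growth regulator MYC and the matrix-associated CYR61, which fell (0.347 and 0.578). The orphan receptor genes NR4A1, NR4A2 and NR4A3, induced together with FOS and EGR1, were all under 1 FPKM on average and were not tested.

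Of 22 kinases that act on AP-1 and EGR genes 18 were tested, and 6 rose, 3 fell and 9 did not pass (median 0.03; 3 higher and 3 lower after removal of the GC and length trend). That is 33.3% of the tested kinases higher and 16.7% lower in the main fit. For this list and the SRF factors below, 21.0% of all tested genes were called higher and 22.4% lower. With the trend removed these shares of all tested genes were 21.6% and 21.9%. MAPK8, which encodes JNK1 and is named for its role, was at 3.84 ± 0.37 and 3.18 ± 0.28 FPKM in WT and KO and did not pass. RPS6KA1, which encodes the ERK-activated kinase RSK1, rose from 6.20 ± 0.53 to 11.5 ± 0.43 FPKM (limma adjusted p = 0.000254), and MAP2K3, an activator of p38, fell from 28.0 ± 2.2 to 19.7 ± 0.57 FPKM. Of 6 tested SRF partners and related factors 1 rose, 2 fell and 3 did not pass (1 higher and 3 lower after removal of the trend). ELK4 fell from 5.26 ± 0.21 to 2.78 ± 0.17 FPKM and ELK3 from 41.9 ± 2.2 to 30.6 ± 1.7 FPKM. MRTFA rose from 7.03 ± 1.07 to 9.89 ± 0.49 FPKM (log2 fold change 0.45, and 0.28 after removal of the trend). SRF was at 28.5 ± 5.7 and 21.4 ± 1.1 FPKM (limma adjusted p = 0.0522, and 0.00215 with a log2 fold change of −0.57 after removal of the GC and length trend).
The dual specificity phosphatases, which switch MAP kinases off, split. Of 7 tested, 2 rose and 3 fell (2 and 5 after removal of the trend). For this list and the next, the shares called among all tested genes were 21.0% higher and 22.4% lower. With the trend removed they were 21.6% and 21.9%. DUSP4 was at 29.7, 28.2 and 29.8 FPKM in WT and 68.5, 65.2 and 67.4 FPKM in KO (log2 fold change 1.17, limma adjusted p = 2.27e-05), and DUSP5 fell from 75.7 ± 2.3 to 52.5 ± 3.5 FPKM. Of 9 tested genes that act on the turnover of AP-1 mRNA or protein, UBE2D1 was the single call, lower in KO (9.87 ± 0.80 to 6.43 ± 0.85 FPKM, limma adjusted p = 0.00458), and it was lost after removal of the trend (adjusted p = 0.873). In that fit 2 other genes of the list were called, both higher in KO: COP1 (adjusted p = 0.0329) and GSK3B (adjusted p = 0.00601), named because they were the only calls.

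**Figure D4:**
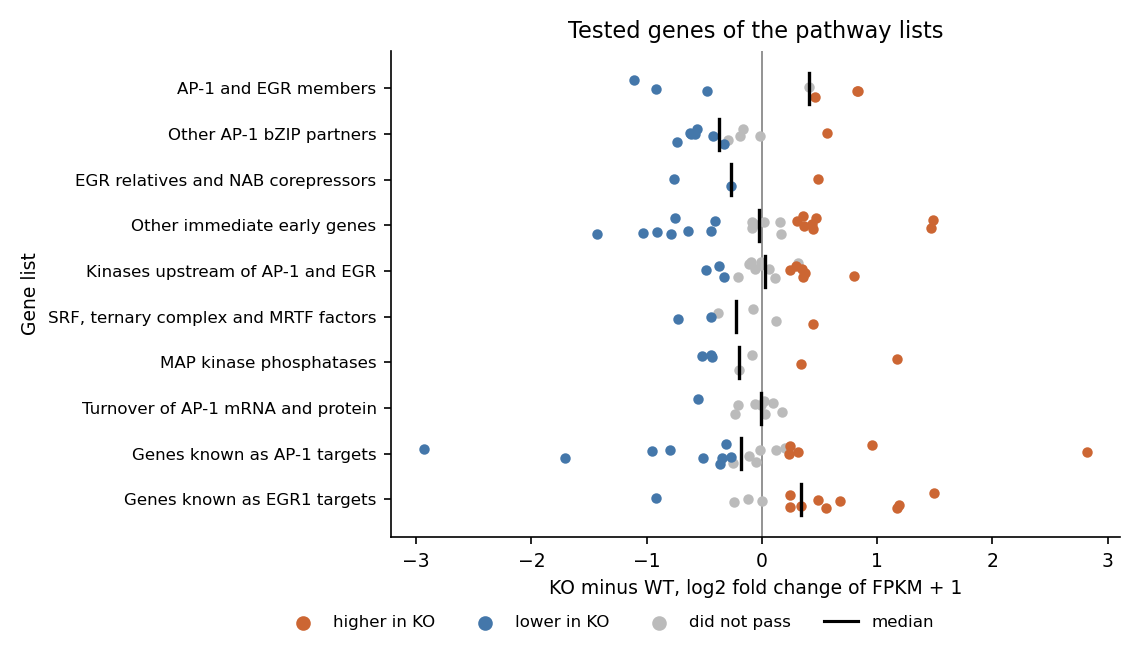
KO minus WT log2 fold change of every tested gene in 10 lists, 1 point a gene, coloured by the limma call at an adjusted p under 0.05, with the list median as a black bar. Other bZIP partners lie mostly below 0, EGR1 targets mostly above 0, and AP-1 targets spread to both sides.

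Genes known as AP-1 targets did not move in 1 direction. Of 24 genes 20 were tested, and 9 fell, 5 rose and 6 did not pass (median −0.18; 10 lower and 4 higher after removal of the GC and length trend). For this list and the EGR1 targets below, the shares called among all tested genes were 22.4% lower and 21.0% higher. With the trend removed they were 21.9% and 21.6%. Among the proteases MMP1 fell to a KO to WT ratio of 0.0834, and MMP3, which passed the filter only through its WT level, fell from 4.08 ± 0.80 to 0.557 ± 0.22 FPKM. MMP9 (ratio 7.63) and PLAU, the urokinase gene, rose, PLAU from 207 ± 11 to 402 ± 18 FPKM. Genes known as EGR1 targets were mostly higher while EGR1 was lower: of 17 genes 13 were tested, and 9 rose, 1 fell and 3 did not pass (median 0.34; 9 and 1 after removal of the trend). PDGFB, a growth factor gene, rose from 0.632 ± 0.201 to 3.59 ± 0.44 FPKM (limma adjusted p = 0.000184), having passed the filter only through its KO level, and ID3, an inhibitor of helix-loop-helix factors, fell from 30.2 ± 3.7 to 15.5 ± 0.36 FPKM. CDKN1A and DUSP4 are in this list as well and have other known regulators.

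Within 50 kb of the 10 genes, 21 other genes were tested, of which 5 rose, 4 fell and 12 did not pass (median 0.04). The 9 calls among 21 were close to the 43.4% called among all tested genes. The tested gene closest to FOSL1, CCDC85B at 414 bases, fell from 190 ± 5.1 to 161 ± 4.0 FPKM (log2 fold change −0.24, limma adjusted p = 0.0151; −0.50 after removal of the GC and length trend). FLOT1, 466 bases from IER3, fell from 31.5 ± 2.8 to 24.9 ± 0.52 FPKM (−0.33, and −0.49 after removal of the trend) while IER3 rose. Near JUNB the overlapping HOOK2 rose from 1.18 ± 0.41 to 2.40 ± 0.22 FPKM, and LSM4, the only tested neighbour of JUND, rose from 48.4 ± 4.6 to 64.0 ± 3.2 FPKM (0.40, and 0.19 after removal of the trend). ERCC1, which spans FOSB on the other strand without shared exonic bases, was at 10.2 ± 1.5 and 10.8 ± 0.50 FPKM and did not pass. ADO, 3513 bases from EGR2, fell from 15.7 ± 1.0 to 13.0 ± 0.61 FPKM (−0.26, limma adjusted p = 0.0209; −0.29 after removal of the trend). The nearest tested genes to EGR1 and JUN, KDM3B and AL136985.2, did not pass (limma adjusted p = 0.678 and 0.599). Where exons overlap, as for JUNB and HOOK2, the reads of the pair cannot be told apart without a stated strand setting.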

How the data were processed

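Messenger RNA libraries of 3 WT and 3 KO HT1080 samples were compared. The authors deposited 1 table of FPKM with gene symbols, positions and lengths; which aligner, counter and strand setting they used is not given in the sources used here. Mouse builds (GRCm38, mm10) stand in the submitters' processing notes, but identifiers, starts and ends of 58735 of 58735 genes equal human GENCODE release 29 on GRCh38. FPKM times length stepped in whole reads (100% of values above 0 within 0.02 of a read), which gave read numbers; counting limits cover counting error only.

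The main test was limma (version 3.58.1, R 4.3.3; trend, genotype only, two-sided) on log2(FPKM + 1) for 12000 genes with a mean of at least 1 FPKM. Checked on simulated reads for these 12000 genes, it recovered 67.2%, 89.6% and 97.0% of genes changed 1.5-, 2- and 4-fold. Of its calls 6.11% were false, and a simulation without changes gave 0 calls. Only 200 genes were changed there, no GC trend was simulated, and each gene was given the median spread of genes at a similar level. In the data 43.4% of genes were called, a GC trend ran with genotype and spread differed from gene to gene, so these rates need not hold for them. GC content was pooled over GENCODE transcripts; trends were removed by loess (span 0.3). Limma-voom and family shares with the trend removed were added after the data were seen. Members and lists were chosen with earlier results of these data known. Named genes were the members, ADGRG1, up to 4 called genes per list with the smallest adjusted p and no overlap between genotypes, and the overlapping or nearest tested neighbours; a few others are given for contrast. MKL1 and MKL2 of the lists were matched as MRTFA and MRTFB. Exact permutation of 3 against 3 libraries cannot go below p = 0.1. Replicate numbers are shared between genotypes, but nothing in the labels pairs them.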

Additional observations from a re-analysis of the deposited data

How the results depend on the processing

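Over 15 alternative fits, the 6 called genes of the 7 tested kept their direction and stayed called in each fit that held them. EGR1 was absent from the fit with the filter at a mean of 5 FPKM. JUNB was called only without WT 3. The count of genes differing between genotypes was 5207, and 3203 with that filter, where fewer genes were tested; it was 3789 to 5372 when 1 library was left out, 3866 with the replicate block and 5552 by limma-voom. Deviations of same-numbered libraries from their genotype means had correlations of −0.07, −0.18 and −0.35. With so few libraries per genotype, these correlations cannot decide whether the numbers pair them. With the block, 6 of the 7 tested genes remained called (limma adjusted p of 0.00238 to 0.0327). Leaving out 1 library gave 6 to 7 called members of the 7 tested (3 to 4 higher, 3 lower). Of the other pathway lists 52 to 69 genes were called (66 with all libraries). Some genes stand in more than 1 list, so no pooled share is given. Of the 21 tested neighbours 7 to 9 were called (9 with all libraries). Over all 12000 tested genes these fits called 3789 to 5372, against 5207, or 43.4%, with all libraries. The log2 fold change of ADGRG1 was −1.10 to −1.03. The KO minus WT share was −17.9 to −15.6 percentage points for FOSL1 and −20.3 to −18.7 for JUN. With the GC and length trend removed the JUN share differed by −17.5 instead of −19.3 points. Other count models planned for the recovered reads were not run, since the deposited values are FPKM and not counts. Limma-voom on the recovered reads was run in their place. Low read numbers limit FOS, FOSB and EGR2.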

Other observations

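Some early response genes and AP-1 targets lay under the filter and are given as read numbers without a test. DUSP2, a nuclear phosphatase of MAP kinases picked because of these values, had 84 reads summed over WT and 0 summed over KO, and a count of 0 allows up to 3 reads. MMP13, a collagenase gene known as an AP-1 target, had 12 reads in all WT libraries together and 70 in the KO libraries. NR4A1 had 171 and 128 reads, with overlapping libraries, and ARC 75 and 111 reads in WT and KO. EFEMP2, a matrix protein gene 18457 bases from FOSL1 and likewise picked on its values, fell from 5.39 ± 0.58 to 2.10 ± 0.24 FPKM (SD, n = 3; limma adjusted p = 0.000268), while FIBP, between them, rose from 18.9 ± 1.0 to 24.9 ± 1.5 FPKM (log2 fold change 0.38, and 0.20 after removal of the GC and length trend).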
